A study of Mus musculus with 8 samples.

Results

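The small leucine-rich matrix proteoglycans are a family of secreted proteins built around a short row of leucine-rich repeats. The 10 genes described here are Dcn, Bgn, Aspn, Ecm2, Lum, Kera, Fmod, Prelp, Omd and Ogn, chosen by name as the family's matrix members, and they are 10 of the 52636 genes listed in the files. These genes were chosen with earlier results of these data known, so counts of them are a description and no test of the family. Their transcripts were measured by RNA-seq of whole liver from C57BL/6 mice aged 8 weeks, in 4 libraries of genotype CTCF fl/fl Albcre- (called WT) and 4 of genotype CTCF fl/fl Albcre+ (called cKO). Both groups carry floxed Ctcf, the gene of the chromatin-looping factor CTCF, and they differ by Cre recombinase, which the albumin promoter drives in hepatocytes and other cells that make albumin. No group had Cre with intact Ctcf, and therefore effects of the recombinase and of the deletion cannot be told apart.

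As background, these proteoglycans bind fibrillar collagens and set how thick and how regularly spaced the fibrils become. Decorin and biglycan carry chondroitin or dermatan sulfate chains, lumican, keratocan, fibromodulin and osteomodulin carry keratan sulfate, and several members bind growth factors of the TGF-beta family or, when released from the matrix, innate immune receptors. In liver they are made mainly by mesenchymal cells, that is stellate cells and portal fibroblasts, and not by hepatocytes.

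The libraries held between 43899481 and 57279620 estimated counts. Ctcf was lower in each cKO library than in each WT library and went from 16.5 ± 0.408 to 12.2 ± 0.942 CPM (counts relative to the TMM-scaled library size; mean ± SD, n = 4 per group), a log2 change of -0.44 (edgeR adjusted p = 0.00202). In TPM the Ctcf groups overlapped, cKO replicate 3 (5.42 TPM) being above WT replicate 4 (5.34 TPM), and the call ended with limma on log2(TPM + 1) (log2 change -0.15, adjusted p = 0.125) and log2(TPM + 0.1) (-0.18, adjusted p = 0.158). The labels do not say which exons are floxed, and reads from exons outside them would still be counted. Of 10 hepatocyte markers, 1 rose (Cps1, lost without WT replicate 3) and 4 fell (Apoa1, Ttr, Serpina1c and Hnf4a), against 15.3% and 15.1% of all tested genes. The count of falls was 2 without cKO replicate 1, 2 or 3, with either scaling by library size and with limma on TPM. The summed level of the 10 was 63880 to 82571 TPM (a level per transcript length) in WT and 75481 to 85368 TPM in cKO. Alb, the most abundant of them in CPM, did not pass the test (log2 change 0.14). The difference between genotypes reached 30.4% of the 15562 genes tested, 15.3% higher and 15.1% lower in cKO at an adjusted p under 0.05. That split depended on scaling, with 2386 genes higher and 2352 lower after TMM scaling and 3621 higher and 1335 lower when libraries were scaled to their totals alone.

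Most of the expressed family was higher in cKO liver. Of the 10 genes, 8 had enough counts to be tested, and 7 of those 8 were higher in cKO, Dcn, Lum, Bgn, Prelp, Ecm2, Omd and Ogn, against 15.3% of all tested genes. None of the 8 fell (15.1% of tested genes did), and Fmod did not pass the test. The median log2 change of the 8 was 0.96, and that of all tested genes was -0.01. In 5 of the 8, Dcn, Lum, Bgn, Prelp and Ecm2, each cKO library was above each WT library, which held for 15.0% of tested genes. A rise of at least 2-fold that passed the test was seen in 4 of the 8, Dcn, Lum, Prelp and Ecm2, and in 3.73% of tested genes. In RNA of whole liver, more cells of a type and more RNA per cell cannot be told apart.

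**Figure D1:**
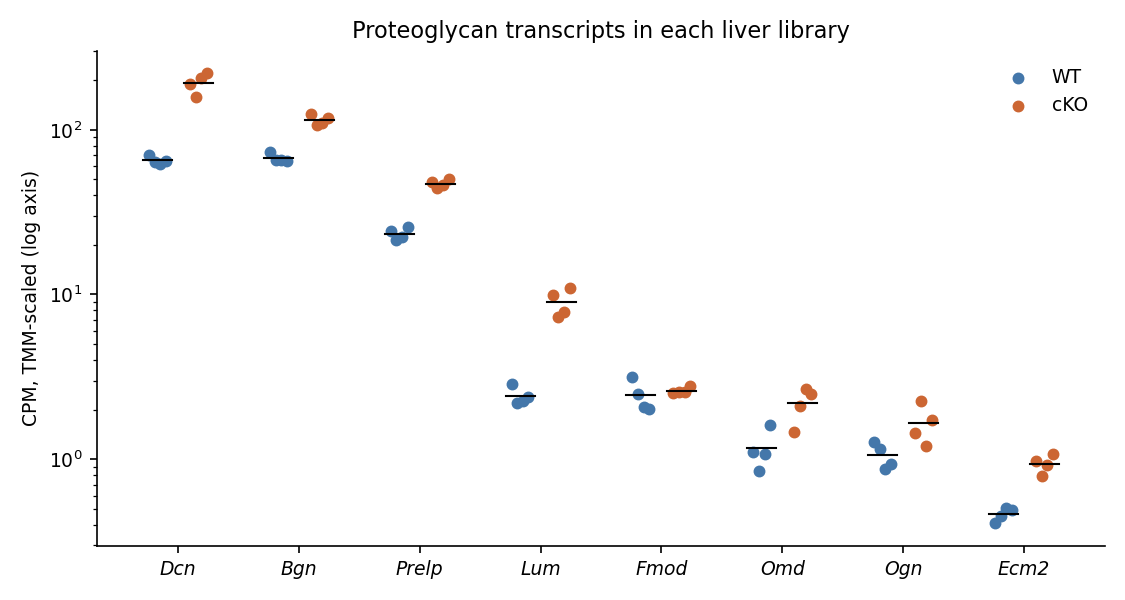
Level of each of the 8 tested proteoglycans (CPM scaled with TMM factors, log axis) in the 4 WT and 4 cKO libraries; each point is a library and each bar the mean of its group. Dcn, Bgn, Prelp, Lum and Ecm2 show 2 separate bands, while the groups of Fmod, Omd and Ogn overlap.

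Decorin (Dcn, ENSMUSG00000019929, GRCm38.p6 chr10:97479500-97518163) binds collagen I and TGF-beta and is the family's best studied member. It had 70.5, 63.9, 61.8 and 64.9 CPM in the WT libraries and 189.7, 158, 207 and 221 CPM in the cKO libraries. Its lowest cKO library, replicate 2, stood well above the highest WT library, replicate 1, and the groups did not overlap. The mean went from 65.2 ± 3.71 to 194 ± 27.1 CPM, a log2 change of 1.57 (SE 0.10, 95% interval 1.35 to 1.79, edgeR adjusted p = 4.43e-06). Biglycan (Bgn, ENSMUSG00000031375, chrX:73483601-73495936), the closest relative of decorin and a ligand of Toll-like receptors when soluble, had 73.7, 65.8, 65.6 and 65.1 CPM in the WT libraries and 125, 107, 110.2 and 118 CPM in the cKO libraries. The WT libraries lay close together apart from replicate 1, and its groups did not overlap either. Its mean went from 67.6 ± 4.08 to 115 ± 8.09 CPM, a log2 change of 0.77 (SE 0.07, 95% interval 0.61 to 0.93, edgeR adjusted p = 5.02e-05).

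The RefSeq window around the start site of Bgn (chrX:73483351-73483650, plus strand, GRCm38.p6, 250 bases before to 50 after the start) is shown because Bgn had the most GC-rich window among the 8 members with one, 63.7% GC against a median of 52.7% over 32851 windows. Capitals mark 3 copies of GGGCGG, the GC box bound by Sp1, in either orientation, 2 of them overlapping near the start, and 1 E-box, CANNTG.
Bgn: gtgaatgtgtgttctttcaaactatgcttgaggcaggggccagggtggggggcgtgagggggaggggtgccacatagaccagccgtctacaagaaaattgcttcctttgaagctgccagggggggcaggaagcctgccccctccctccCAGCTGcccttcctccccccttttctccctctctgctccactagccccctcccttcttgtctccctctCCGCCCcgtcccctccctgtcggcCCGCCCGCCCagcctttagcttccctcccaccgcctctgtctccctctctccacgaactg
A GC box was present in 35.7% of all windows and an E-box in 72.3%.

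Asporin (Aspn, ENSMUSG00000021388, chr13:49544443-49567565), which competes with decorin for collagen, was nearly absent. It had between 0 and 3 counts in every library, at or under the 3 counts that a count of 0 allows, and was not tested. Ecm2 (ENSMUSG00000043631, chr13:49504810-49532789), a secreted relative of decorin with a von Willebrand C domain, was low, with 19 to 22 counts in WT and 41 to 63 in cKO. It had 0.408, 0.448, 0.504 and 0.492 CPM in the WT libraries and 0.976, 0.786, 0.923 and 1.07 CPM in the cKO libraries. Low as it was, its lowest cKO library, replicate 2, was above its highest WT library, replicate 3. The log2 change was 1.02 (SE 0.20, 95% interval 0.59 to 1.46, edgeR adjusted p = 0.00356).

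Lumican (Lum, ENSMUSG00000036446, chr10:97565501-97572703), a keratan sulfate proteoglycan that limits the thickness of collagen fibrils, lies beside Dcn on the same chromosome. It had 2.86, 2.19, 2.25 and 2.39 CPM in the WT libraries and 9.97, 7.25, 7.87 and 10.9 CPM in the cKO libraries. The cKO libraries fell into a higher pair, replicates 1 and 4, and a lower pair, replicates 2 and 3, both well above WT. Its log2 change of 1.89 (SE 0.15, 95% interval 1.56 to 2.23, edgeR adjusted p = 2.22e-05) was the highest estimate in the family, and its interval overlaps that of Dcn. Keratocan (Kera, ENSMUSG00000019932, chr10:97606962-97613688), the cornea's member of this group, which lies beyond Lum in the same cluster, had 0 counts in all 8 libraries. A count of 0 allows up to 0.0524 to 0.0683 CPM per library, for counting error only.

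Fibromodulin (Fmod, ENSMUSG00000041559, chr1:134037254-134048280), which shares a collagen binding site with lumican, was the 1 tested member that did not pass. It had 3.16, 2.501, 2.09 and 2.01 CPM in the WT libraries and 2.51, 2.57, 2.57 and 2.78 CPM in the cKO libraries. All 4 cKO libraries lay inside the range of the WT libraries, of which replicate 1 was the highest. The log2 change was 0.09 with a 95% interval of -0.25 to 0.43 (SE 0.16, edgeR adjusted p = 0.692), and changes within that interval are not excluded. Prelp (ENSMUSG00000041577, chr1:133910304-133930102), a basic member without glycosaminoglycan chains that ties basement membrane heparan sulfate to collagen, lies close to Fmod. It had 24.2, 21.4, 22.4 and 25.6 CPM in the WT libraries and 47.9, 44.4, 46.4 and 49.98 CPM in the cKO libraries. Each group was tight and the groups were far apart. The mean went from 23.4 ± 1.84 to 47.2 ± 2.36 CPM, a log2 change of 1.01 (SE 0.07, 95% interval 0.85 to 1.17, edgeR adjusted p = 1.17e-05).

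The windows of these neighbours are printed together because Prelp rose and Fmod did not pass the test. That of Fmod (chr1:134037004-134037303, plus strand) lies at the start of the gene, and that of Prelp (chr1:133921352-133921651, minus strand) lies inside the span RefSeq gives the gene, at the start of 1 of its transcripts. Capitals mark the single E-box, CANNTG, in each.
Fmod: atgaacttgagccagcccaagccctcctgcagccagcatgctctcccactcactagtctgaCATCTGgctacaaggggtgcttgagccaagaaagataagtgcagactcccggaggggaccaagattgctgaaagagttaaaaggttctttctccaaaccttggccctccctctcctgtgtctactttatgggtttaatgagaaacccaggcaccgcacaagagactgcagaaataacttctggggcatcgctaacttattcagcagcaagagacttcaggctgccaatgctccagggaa
Prelp: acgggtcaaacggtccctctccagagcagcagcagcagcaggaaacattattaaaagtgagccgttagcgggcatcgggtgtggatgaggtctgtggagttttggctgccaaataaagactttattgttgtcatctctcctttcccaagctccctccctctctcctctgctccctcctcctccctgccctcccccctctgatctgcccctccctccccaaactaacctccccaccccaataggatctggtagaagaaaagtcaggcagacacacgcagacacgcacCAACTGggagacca
Their GC content was 51% in Fmod and 55.3% in Prelp. Neither window holds the TATA box TATAAA, the GC box GGGCGG, the AP-1 motif TGANTCA, the TEAD motif GGAATG or the 12-base core of the CTCF motif on either strand, and such a search says nothing of sites elsewhere.

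Osteomodulin (Omd, ENSMUSG00000048368, chr13:49582462-49592612), a keratan sulfate member first known from bone, had 1.10, 0.851, 1.08 and 1.62 CPM in the WT libraries and 1.45, 2.11, 2.68 and 2.49 CPM in the cKO libraries. The groups overlapped in 1 library each, WT replicate 4 being above cKO replicate 1. The mean went from 1.16 ± 0.323 to 2.18 ± 0.540 CPM, a log2 change of 0.91 (SE 0.23, 95% interval 0.40 to 1.42, edgeR adjusted p = 0.0132). Osteoglycin (Ogn, ENSMUSG00000021390, chr13:49608015-49624501), also called mimecan, had 1.26, 1.16, 0.871 and 0.936 CPM in the WT libraries and 1.44, 2.24, 1.20 and 1.74 CPM in the cKO libraries. Its cKO replicate 3 lay below WT replicate 1, and cKO replicate 2 was the highest of all 8. The log2 change was 0.64 (SE 0.22, 95% interval 0.16 to 1.12, edgeR adjusted p = 0.0467), close to the threshold. The call of Ogn ended when any 1 library other than cKO replicate 3 was left out (adjusted p from 0.0259 to 0.122 over the 8 omissions, log2 change 0.48 to 0.78), with an offset for effective length (adjusted p = 0.05376) and with limma-voom (0.0679).

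Ogn and Omd are shown because they are neighbours whose start windows differ in these motifs. In Ogn (chr13:49607765-49608064, plus strand) capitals mark 2 overlapping copies of TATAAA in opposite orientation at -229 and -227 from the start, 1 GGAATG and 4 E-boxes, and in Omd (chr13:49582212-49582511, plus strand) none of the 6 motifs was found.
Ogn: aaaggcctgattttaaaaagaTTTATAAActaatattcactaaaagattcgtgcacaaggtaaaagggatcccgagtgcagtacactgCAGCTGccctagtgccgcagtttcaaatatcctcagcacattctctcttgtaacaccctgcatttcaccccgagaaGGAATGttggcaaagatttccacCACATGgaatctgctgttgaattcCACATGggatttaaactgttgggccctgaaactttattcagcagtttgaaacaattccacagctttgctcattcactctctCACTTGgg
Omd: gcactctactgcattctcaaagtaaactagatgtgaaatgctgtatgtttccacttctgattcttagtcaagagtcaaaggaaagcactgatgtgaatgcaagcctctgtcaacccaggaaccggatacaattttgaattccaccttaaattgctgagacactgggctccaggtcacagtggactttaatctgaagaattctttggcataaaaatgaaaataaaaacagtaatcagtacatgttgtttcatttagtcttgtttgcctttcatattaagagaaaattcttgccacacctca
TATAAA was present in 13.6% of all 32851 windows and GGAATG in 14.7%. Over the 8 members with a window, the CTCF core was found in 0 (3.43% of all windows) and the AP-1 motif in 0 (7.81%). GC content ran from 31% in Aspn and 37.7% in Omd to the 63.7% of Bgn.

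**Figure D2:**
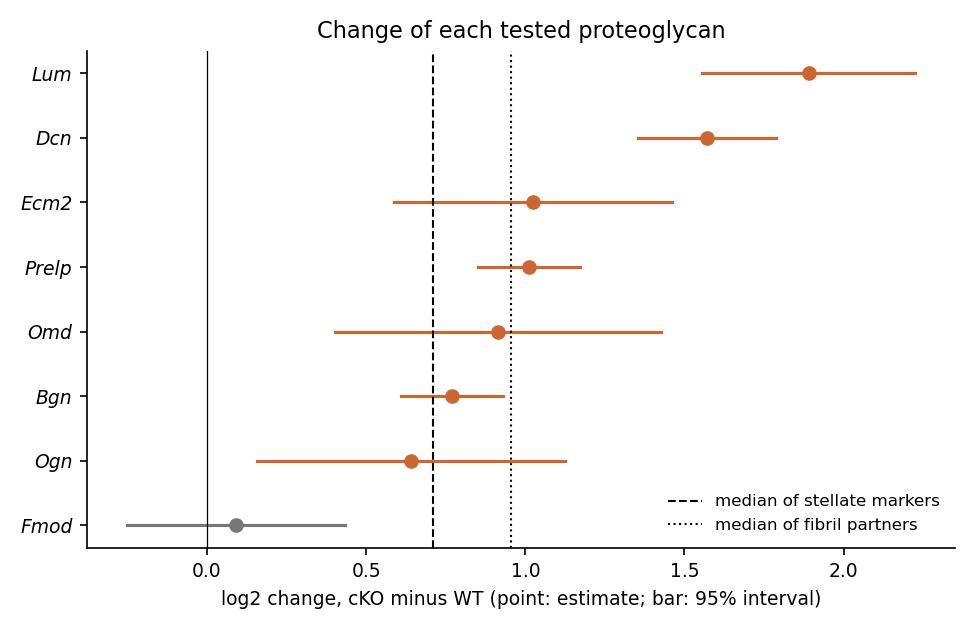
Log2 change (cKO minus WT) of the 8 tested proteoglycans with its 95% interval, orange where the edgeR adjusted p was under 0.05 and grey where not; dashed and dotted lines mark the median log2 changes of 15 stellate cell markers (0.71) and 21 fibril partners (0.95). Lum, Dcn, Ecm2 and Prelp lie to the right of both lines, and the interval of Fmod includes 0.

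Levels of different genes can be compared per length, in TPM. In WT liver Dcn led with 43.3 ± 2.44 TPM, followed by Bgn with 35.4 ± 2.60, Prelp with 7.13 ± 0.56 and Lum with 1.12 ± 0.13 (SD, n = 4). Below them came Fmod with 0.868, Omd with 0.833, Ogn with 0.463 and Ecm2 with 0.128 TPM. The libraries of Lum and Fmod overlapped, as did those of Fmod and Omd, so these neighbours in the order cannot be separated in WT. In cKO the order was Dcn with 149 ± 24.7 TPM, Bgn with 68.2 ± 5.46, Prelp with 16.3 ± 1.08 and Lum with 4.72 ± 0.95. Omd (1.81 TPM) then stood above Fmod (1.05 TPM), and the libraries of Fmod and Ogn (0.820 TPM) overlapped.

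The sum over all 10 genes went from 89.3 ± 5.41 TPM in WT to 242 ± 30.1 TPM in cKO, 2.71-fold (2.27-fold in TMM-scaled CPM). Every cKO library (201 to 272 TPM) was above every WT library (84.5 to 97.0 TPM). Decorin's share of the summed TPM was 47.9% to 49.4% in the WT libraries and 58.2% to 63.9% in the cKO libraries. The share of Bgn went the other way, from 38.4% to 40.5% in WT to 26.0% to 30.8% in cKO, while its own level rose. Lum made up 1.25% of the sum in WT and 1.94% in cKO, and Fmod 0.967% and 0.439%. Without Dcn and Bgn the sum was 10.5 ± 0.86 TPM in WT and 25.0 ± 2.20 TPM in cKO.

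**Figure D3:**
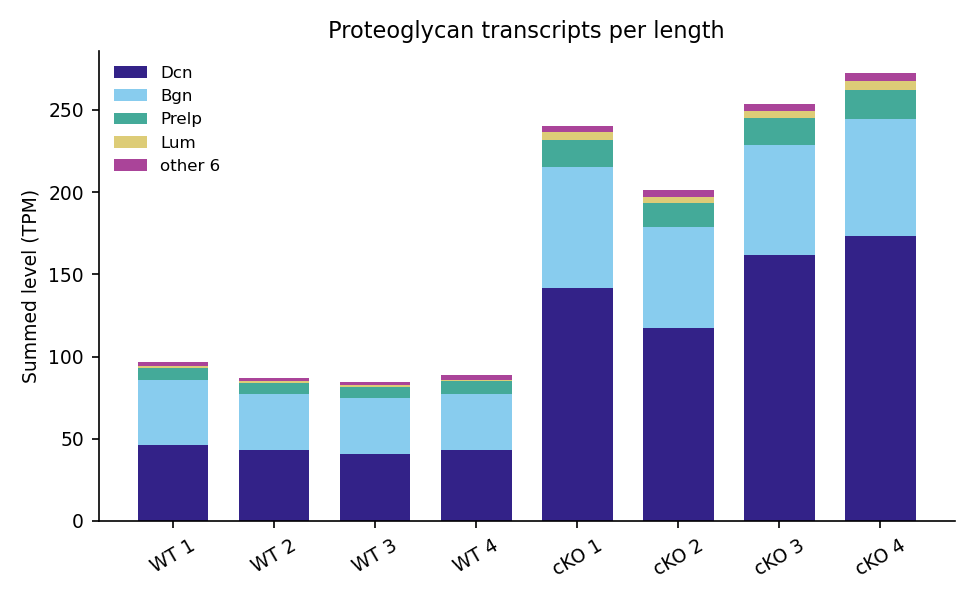
Summed level of the 10 proteoglycans (TPM) in each library, stacked by gene, with the 6 least abundant joined. The bars stand at 84.5 to 97.0 TPM in WT and 201 to 272 TPM in cKO, and Dcn takes the largest part of each.

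Members were next compared with each other within each library, as log2 ratios of CPM, over 11 pairs. The Dcn to Bgn ratio lay between -0.09 and -0.0042 in WT and between 0.56 and 0.91 in cKO, a difference of 0.79. Dcn also gained on Fmod by 1.44, on Prelp by 0.55 and on Ecm2 by 0.54, and Fmod lost 0.90 against its neighbour Prelp. In these 5 pairs the groups did not overlap, and each had the smallest p that an exact two-sided permutation test over 70 assignments can give, 0.0286, or 0.0629 adjusted over the 11 pairs. None of the 11 ratios of CPM passed an adjusted p of 0.05 in that exact permutation test, 5 were under 0.05 unadjusted, and with ratios of TPM 7 passed (adjusted p = 0.0449). Dcn against Lum differed by -0.32 (adjusted p = 0.0786 in the exact permutation test), with overlapping groups. Within the group on chromosome 13, Ogn against Omd differed by -0.29, Ogn against Ecm2 by -0.39 and Omd against Ecm2 by -0.11, with adjusted p of 0.534, 0.279 and 0.714 in the exact permutation test.

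Most tested markers of stellate cells and portal fibroblasts were higher in cKO too. Of 15 hepatic stellate cell markers, 13 rose and 1 fell, against 15.3% and 15.1% of all tested genes, with a median log2 change of 0.71, and none was at 0. Lrat, which makes the retinyl esters that stellate cells store, had 4.92, 4.58, 4.67 and 4.45 CPM in the WT libraries and 13.2, 11.8, 12.5 and 13.6 CPM in the cKO libraries, a log2 change of 1.45 (edgeR adjusted p = 3.97e-06). Rgs5 (1.20) and Hand2 (1.00) were also higher on the log2 scale, and Cxcl12, a chemokine, was lower (-0.44). The summed level of the stellate markers was 288 to 319 TPM in WT and 340.0 to 441 TPM in cKO. Of 8 tested portal fibroblast markers 5 rose, against the same 15.3%, among them Dpt (1.12), Entpd2 (1.07) and Fbln2 (1.27). Thy1 (0.04), Gli1 (0.34) and Mgp (-0.00039), named after their values were seen, did not pass. The summed level of the portal fibroblast markers was 10.7 to 17.1 TPM in WT and 21.8 to 25.8 TPM in cKO. Their part in the rise of the proteoglycans was not tested.

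Set against the geometric mean of the 15 stellate markers in the same library, which went from 10.2 ± 0.60 to 16.6 ± 1.61 CPM, the members spread widely. That mean itself rose by 0.70 on the log2 scale, so a gene that did not change loses about as much against it. Lum gained 1.18 and Dcn 0.86 on the log2 scale relative to these markers, and Prelp and Ecm2 gained 0.32 each. Fmod, whose own log2 change of 0.09 did not pass the test, lost 0.58. For these 5 the groups did not overlap (exact two-sided permutation p = 0.0286, the smallest possible, and 0.0457 adjusted over 8 members). Bgn differed by 0.07, Ogn by -0.07 and Omd by 0.21, with overlapping groups and adjusted p of 0.381, 0.8286 and 0.555 in the exact permutation test. The 5 calls rest on a grid of few possible p-values, and 0 of 8 passed when any 1 cKO library was left out or when ratios were taken in TPM. Over the 8 omissions Lum stayed at 1.14 to 1.23, Dcn at 0.82 to 0.90, Prelp at 0.29 to 0.38, Ecm2 at 0.22 to 0.37 and Fmod at -0.65 to -0.49. The share of all tested genes whose ratio to these markers separates the groups was not counted.

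**Figure D4:**
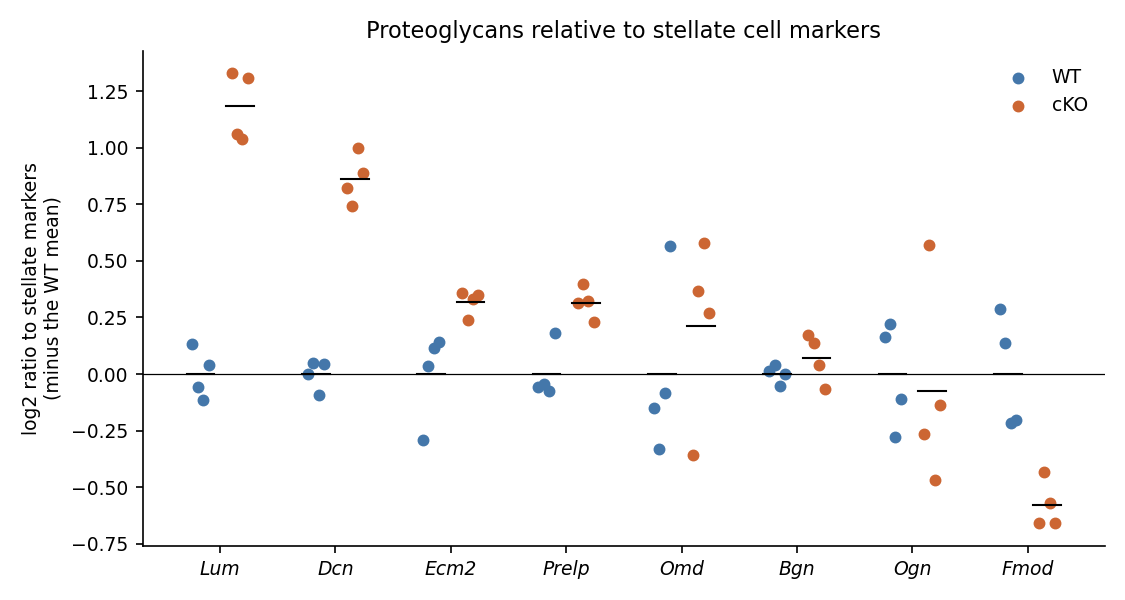
Log2 ratio of each tested proteoglycan to the geometric mean of 15 stellate cell markers in the same library, minus the WT mean; points are libraries and bars group means. Lum and Dcn lie 1.18 and 0.86 higher in cKO, Bgn 0.07 higher with overlapping groups, and Fmod 0.58 lower. The marker mean itself rose by 0.70.

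Markers of other cells were counted the same way. Of 5 tested smooth muscle markers 0 passed edgeR's test in either direction, 0 had an unadjusted p under 0.05, and 0 passed with DESeq2. Among mesothelial markers 1 of 5 rose (Wt1, log2 change 0.93), among endothelial markers 1 of 8 (Tek, 0.52), among Kupffer cell markers 1 of 7 (Marco, 0.61), among cholangiocyte markers 2 of 6 (Epcam, 1.4996, and Krt7, 1.13) and among lymphocyte markers 3 of 9, against 15.3% of all tested genes. The calls of Wt1 (without WT replicate 3 or cKO replicate 1 or 3), Tek (without WT replicate 3 or 4 or any 1 cKO library) and Marco (without WT replicate 3) were lost when those libraries were left out. That of the lymphocyte marker Cd3e was lost without WT replicate 1, 3 or 4, among others (edgeR adjusted p up to 0.0753). Cd3d (8 to 15 counts in WT) and Cd3e (5 to 20) entered the test only with their cKO libraries and are no support for the count. Other settings added calls: 3 endothelial markers rose with DESeq2, with limma-voom and with limma on log2(TPM + 1), among them Lyve1 (log2 change 1.04 with DESeq2), which also rose without WT replicate 2 (1.46), and the smooth muscle gene Tagln rose without WT replicate 1 (0.53, edgeR adjusted p = 0.0167). Summed levels were between 11.7 and 20.3 TPM in WT and between 15.7 and 17.1 TPM in cKO for smooth muscle, and between 55.2 and 117 TPM in WT and between 94.9 and 146 TPM in cKO for endothelium. Their part in the rise of the proteoglycans was not tested.

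Most tested matrix partners of the family were higher too. Of 21 tested fibrillar and fibril-associated collagens, cross-linking enzymes and elastic or adhesive matrix genes, 16 were higher and 0 lower (0 lower also at an unadjusted p under 0.05 and with DESeq2), against 15.3% and 15.1% of all tested genes, with a median log2 change of 0.95. Col14a1, a collagen on fibril surfaces that binds decorin, had 18.4, 21.1, 17.0 and 18.4 CPM in the WT libraries and 38.6, 31.6, 35.7 and 39.8 CPM in the cKO libraries, with no overlap and a log2 change of 0.96 (edgeR adjusted p = 5.02e-05). Collagen VI chains, which bind decorin and biglycan, rose by 0.95 (Col6a1) and 1.23 (Col6a2) on the log2 scale, and the lysyl oxidase relative Loxl2 by 1.32. Lox, among the 16 and named after its values were seen, had 5 to 12 counts in WT and 14 to 28 in cKO. It entered the test only through its cKO libraries and is no support for the count.

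Of 20 tested genes of the linker and of chondroitin and dermatan sulfate, 5 rose (25%, against 15.3% of all tested genes) and 2 fell (against 15.1%), with a median log2 change of 0.30. The count of rises was 2 without WT replicate 3 or cKO replicate 4, and 3 without WT replicate 1 or 2 or cKO replicate 3. Chst15, a chondroitin sulfotransferase, went from 10.8 ± 2 to 18.6 ± 2.35 CPM (log2 change 0.79, edgeR adjusted p = 0.00205), and Csgalnact2, which starts chondroitin chains, rose by 0.62. Dse, the epimerase that turns chondroitin into dermatan sulfate and named here after its values were seen, rose by 0.63 with overlapping groups. Its call ended without WT replicate 1 or 3 or cKO replicate 2 or 4 (edgeR adjusted p from 0.0200 to 0.0806 with each library left out in turn). The linker enzymes B4galt7 and B3gat3 fell by 0.38 and 0.28 on the log2 scale. Of 6 tested keratan sulfate genes 0 rose (0 at an unadjusted p under 0.05 and 0 with DESeq2) and 1 fell, against the same background, B4galt1, a galactosyltransferase with many other substrates (log2 change -0.47, edgeR adjusted p = 0.00799). Without cKO replicate 1, which was at 2.42 CPM where the other cKO libraries were at 5.16 to 6.51 CPM, B3gnt2 rose (log2 change 0.67, edgeR adjusted p = 0.00545).

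Among genes that process or degrade the family, 5 of 9 rose and 1 fell, against 15.3% and 15.1% of all tested genes. The protease Bmp1, which trims the propeptides of decorin, biglycan and osteoglycin, had 173, 159, 197 and 159 CPM in the WT libraries and 123, 119, 119 and 117 CPM in the cKO libraries, a log2 change of -0.52 (edgeR adjusted p = 0.000862). Every cKO library of Bmp1 was below every WT library. The rises were in the metalloproteinase Mmp2 (log2 change 1.35), in Adamts5 (1.23) and Adamts1 (1.03), which cleave proteoglycans. The others, named after their values were seen, were the macrophage elastase Mmp12 and Pcolce, a helper of Bmp1. Mmp12 had 0 to 15 counts in WT and 39 to 89 in cKO, entered the test only through its cKO libraries, and is no support for the count. The call of Pcolce (log2 change 0.49) ended with the offset for effective length (0.20, adjusted p = 0.270) and with limma on log2(TPM + 0.1) (adjusted p = 0.0617). Of 16 ligands and receptors 6 rose and 0 fell (2 at an unadjusted p under 0.05, 1 with DESeq2), against the same background, with a median log2 change of 0.46. Tgfb3 (1.27) and Tgfb2 (1.66), growth factors that decorin and biglycan bind, were higher, as were the receptor Igf1r (0.65) and the integrin chain Itgb1 (0.42). Of these, Tgfb2 had 5 to 11 counts in WT and 22 to 32 in cKO. It entered the test only through its cKO libraries and is no support for the count of 6. The call of Tgfb2 ended with the offset for effective length (log2 change 0.95, adjusted p = 0.0922) and with limma on log2(TPM + 1) (0.0917, adjusted p = 0.242) and log2(TPM + 0.1) (0.51, adjusted p = 0.0551). The rest of the 6, named after their values were seen, were Tlr2 (0.73) and Tlr4 (0.61, edgeR adjusted p = 0.0474), the innate receptors of soluble biglycan. The call of Tlr4 did not survive the omission of any 1 library (edgeR adjusted p from 0.0526 to 0.123).

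Of 5 tested relatives with leucine-rich repeats outside the 10, 1 rose, Podn (log2 change 0.41, edgeR adjusted p = 0.0491, lost without WT replicate 2, 3 or 4 or cKO replicate 1, 2 or 3), a share of 20% against 15.3% of all tested genes, and the median log2 change was -0.29. Of 15 tested heparan sulfate and other proteoglycans 3 rose and 3 fell, 20% each, near the 15.3% and 15.1% of all tested genes, with a median log2 change of 0.02. With limma on TPM 0 of these genes fell, and 0 of the linker and chondroitin or dermatan sulfate genes. Gpc1, a glypican, went up by 1.30 on the log2 scale (edgeR adjusted p = 2.73e-05), Gpc6 by 0.85, and the basement membrane proteoglycan Agrn and the syndecan Sdc2 fell by 0.52 and 0.34. Srgn (0.65) and Sdc4 (-0.54), named after their values were seen, make up the rest.

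Of the 10 genes, 9 lie in 3 clusters, and the genes within 500 kb were read as their surroundings. Around Fmod and Prelp, 14 neighbours were tested, of which 0 rose (3 at an unadjusted p under 0.05, 0 with DESeq2), 3 fell (Zc3h11a, Adora1 and Tmem183a, by 0.38, 0.51 and 0.20 on the log2 scale) and 11 did not pass. Around Ogn, Omd, Aspn and Ecm2, 10 neighbours were tested, of which 1 rose (Iars, 0.34), 1 fell (Ninj1, -0.24) and 8 did not pass. Of all tested genes 15.3% were higher and 15.1% lower, and from counts this small nothing is read about the neighbourhoods. The calls of Ninj1 (without WT replicate 2, 3 or 4 or cKO replicate 3 or 4) and Tmem183a (without WT replicate 2 or 3 or cKO replicate 2, 3 or 4) were lost when those libraries were left out. Around Dcn, Lum and Kera, 5 neighbours are listed in the files and none had enough counts to be tested. The gene Cenpp spans all 4 members on chromosome 13, so reads there could be divided between genes, since the strand setting of the counting is not given in the sources used here. Cenpp had 8.3 to 24.7 counts per library and a log2 change of 0.17 (edgeR adjusted p = 0.784).

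**Figure D5:**
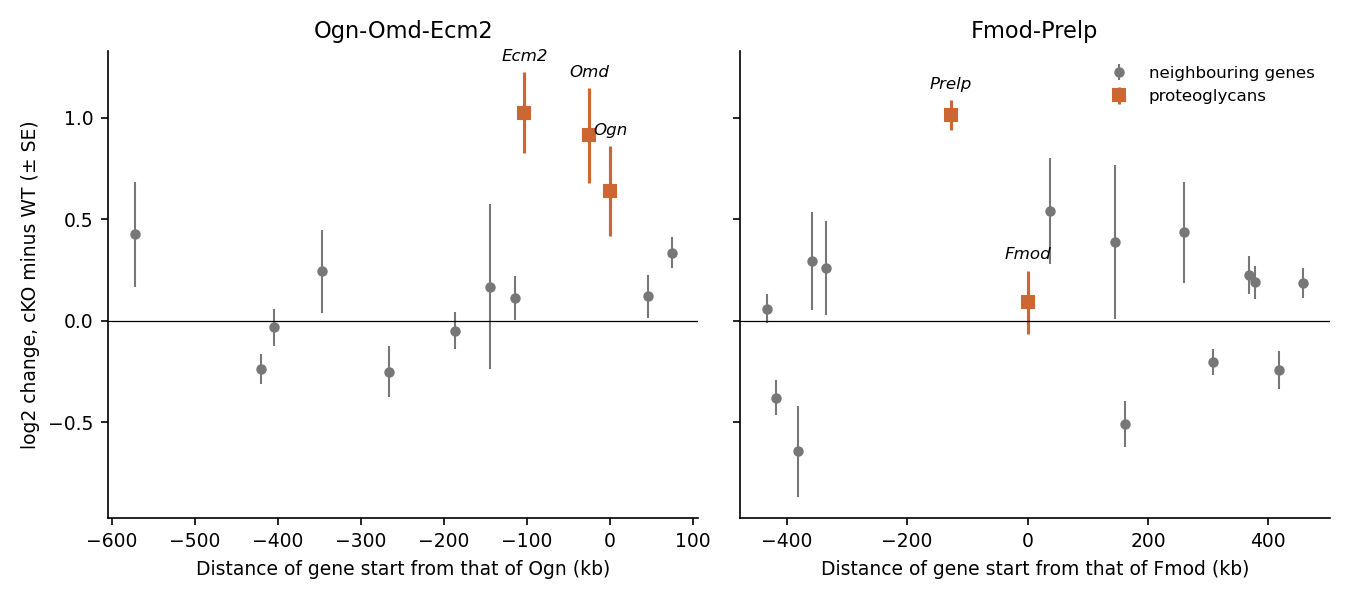
Log2 change (cKO minus WT, bars ± SE) against distance of the gene start from that of Ogn (left) or Fmod (right), for tested proteoglycans (orange squares) and tested neighbours within 500 kb (grey circles). Ecm2, Omd, Ogn and Prelp lie above all neighbours of their cluster, and Fmod lies among them.

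The genes most like a member were those with the smallest root mean square difference of centred log2 CPM over the 8 libraries, among the 9134 genes whose mean over all 8 libraries reached 5 CPM. For Dcn these included Lrat (0.110), Ntn1 (0.121), Pdgfra (0.143) and Nid1 (0.150). For Lum they were Mnd1 (0.201), Pdgfra (0.236), Bcam, Lrat and Sparcl1. Bgn was nearest to Ahnak (0.0718), Abhd14a, Plvap, Cdkn2c and Elovl5, and Prelp to Timp2 (0.0881), Abcc9, Arap2, Wwtr1 and Ermp1. Within the family the closest pair by this measure was Prelp and Ecm2 (0.132), then Bgn and Prelp (0.150), while Dcn and Lum stood at 0.212 and Lum and Fmod at 0.905. The 8 libraries share the genotype contrast, so genes with a like size of change score as alike. Of the 18 genes this rule picked, 9 had a WT mean under 5 CPM and entered only through their cKO libraries, among them Lrat, Ntn1, Pdgfra, Nid1, Mnd1, Bcam and Sparcl1, so the list is only a description.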

How the data were processed

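Liver RNA libraries of 4 WT and 4 cKO samples were made from total RNA with an Illumina TruSeq kit, per the labels' protocols. Per the submitters' processing notes, STAR 2.5.1 aligned the reads to mm10 and RSEM quantified them; which annotation and strand setting were used is not given in the sources used here. Deposited values are RSEM expected counts (estimated counts per gene) with effective lengths, per the file headers. TPM, also deposited by the authors, is scaled for length and total. FPKM was deposited by the authors too and was not used.

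Estimated counts were rounded, filtered with edgeR's filterByExpr (minimum count 10, minimum total 15; 15562 of 52636 genes), scaled with TMM and compared with edgeR 4.0.16 (R 4.3.3; robust quasi-likelihood test, Benjamini-Hochberg adjustment over all tested genes, threshold 0.05). The procedure was run on simulated data in which far fewer genes changed than were called here, so that run does not test the scaling in these data. Ratios were compared by exact two-sided permutation over 70 assignments. Promoter windows and coordinates are from RefSeq GRCm38.p6, and Dcn and Lum have no window in that table. The alternatives were other scalings, filters and tools (DESeq2 1.42.0, limma 3.58.1), a 1.5-fold null, a stricter threshold of 0.01, TPM and each library left out.

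The members and lists were chosen with earlier results of these data known. Named were all members, Ctcf, up to 4 genes of smallest p in each list with the strongest opposite call, genes near the clusters, and the 5 genes most like each member of at least 5 CPM; some of these are not reported here. The labels do not say that each sample came from a separate mouse, and the p-values refer to spread among samples. No pair of libraries of a group agreed within sampling noise.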

Additional observations from a re-analysis of the deposited data

Results flagged for a closer look

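A pair of values stood apart within their group of 4 libraries. Bgn in WT replicate 1 was at 73.7 CPM, with the other WT libraries between 65.1 and 65.8 CPM, so that the gap took up 0.913 of the group's range. The log2 ratio of Prelp to the stellate markers was 1.37 in WT replicate 4 and 1.12 to 1.15 in the others, a gap of 0.881 of the range. Both gaps are past Dixon's 95% critical value for 4 samples. Of 60 groups examined 2 stood out, and chance marks about 1 in 20.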

How the results depend on the processing

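Dcn, Lum and Prelp kept their call and direction in all 23 alternatives, with log2 changes of 1.502 to 1.76, 1.42 to 1.995 and 0.97 to 1.19. Testing against a 1.5-fold change left 3 members higher, ending the calls of Bgn (0.77), Omd (0.91), Ecm2 (1.02) and Ogn (0.64), left 13 of 36 higher and 0 of 7 lower calls in the 7 lists of related genes, and left 0 higher and 0 lower beside the clusters. At an adjusted p under 0.01 Omd (0.91) and Ogn (0.64) did not pass, the lists had 23 higher, and 2 genes beside the clusters were lower. Ogn also did not pass with the length offset (0.65) or limma-voom (0.61), and with 1 library left out its log2 change lay between 0.48 and 0.78. Beside the clusters (1 higher, 4 lower), scaling by library size gave 4 and 2, without the 20 most abundant genes 3 and 2, no filter 2 lower, the length offset 2 higher, limma on TPM 4 and 0 with either pseudocount, and left-out libraries up to 2 higher and down to 2 lower. In limma on TPM the lists had 1 lower call. Ratios of TPM gave 7 pairs of members past the threshold, and 0 ratios to the stellate markers. The latter count was 0 to 5 with 1 library left out. The sum of members had a log2 difference of 1.19 in CPM and 1.44 in TPM. The cause of these shifts was not tested. Library size alone moved the median of all genes to 0.10 and log2(TPM + 0.1) to 0.14, against which a member's change is read.

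Reversals were limited to genes and ratios that did not pass. Card19 and Ippk changed sign with library size (0.0742, 0.0569), without the 20 most abundant genes (0.0445, 0.0285), with log2(TPM + 1) (0.112, 0.0879) and with log2(TPM + 0.1) (0.119, 0.121). On those TPM scales Clec4f (0.0222, 0.0224) and Mylk (0.0427, 0.0470) did too, and Rspo1 (0.0330) on the first. With 1 library left out, Card19 ran from -0.0723 to 0.00334, Upk3b from -1.02 to 0.101, Cenpp from -0.0222 to 0.594, Omd over Ecm2 from -0.228 to 0.0983 and Ogn over the stellate markers from -0.289 to 0.0576.

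The labels do not say that replicate numbers pair the samples. Deviations of same-numbered libraries correlated by 0.0417 to 0.0567, and those of other pairs by -0.104 to 0.0921. Of the 8 libraries, 6 correlated best with their own number, so a weak pairing was not excluded. A replicate block gave 4941 calls against 4738, kept 7 members higher, put 2 genes beside the clusters higher, and gave 0 ratios to the stellate markers past the threshold, since the smallest p it allows is 0.125. Depth limits Aspn and Kera, which were not tested.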
